A study of Homo sapiens and Mus musculus with 29 samples.

Results

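Nuclear receptors other than HNF4A and HNF4G were followed here at the level of mRNA, in RNA-seq data from tumors and metastases of the human pancreatic cancer line HPAF-II and from mouse KPC cell lines. The 41 genes were chosen by symbol, and a gene was described as measured when its mean over all libraries of a table was at least 0.3 RPKM (reads scaled to gene length and to the depth of the library). By this rule, 25 of the 41 genes passed in the HPAF-II table, among 19900 of 58719 genes, and 25 passed in the KPC table, among 16682 of 54446 genes. The study examined HNF4G and the pioneer factor FOXA1 in the growth and spread of pancreatic ductal adenocarcinoma (PDAC).

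HPAF-II is an established line of the classical PDAC subtype. It was injected into the tail of the pancreas of NSG mice (about 8 weeks old), which lack functional lymphocytes but keep their own pancreas, stroma and blood vessels. All HPAF-II cells were CRISPR lines, and no drug was given. There were 3 control tumors (labeled Cas-9-EV), 3 FOXA1-OE tumors (Cas-9-FOXA1, lentiviral overexpression in the control line), 4 HNF4G-KO tumors with 2 metastases (HNF4G KO-EV), and 5 HNF4G-KO + FOXA1-OE tumors with 4 metastases (HNF4G KO+FOXA1). The HNF4G-KO cells were pooled from 3 clones with heterozygous frameshifts, so that differences between the clone pool and the control line cannot be told apart from an effect of HNF4G. Tumors 2 and 3 of the HNF4G-KO + FOXA1-OE group came from 1 mouse, as did its metastases 1 (spleen) and 2 (fat), and such samples were averaged before any test. For KPC, 4 libraries of a primary tumor line stood against 4 of a line from its liver metastasis. KPC is a genetically engineered mouse model of PDAC, and the labels give no further genotype or treatment (WT).

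Nuclear receptors are transcription factors with a DNA-binding domain of zinc fingers and a ligand-binding domain. Thyroid hormone, retinoic acid, steroids, oxysterols, bile acids, fatty acids and drugs bind different members, while orphan members have no accepted physiological ligand. Many of them pair with a retinoid X receptor, and ligand exchanges corepressors for coactivators on the receptor. In liver, gut and pancreas, members of this family run programs of lipid, bile acid and xenobiotic metabolism beside the HNF4 receptors.

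Before the receptors, the libraries were checked against their labels. Depth was 35.1 to 64.1 M reads in HPAF-II tumors, 33.1 to 69.6 M in metastases and 30.1 to 44.4 M in KPC lines. All 7 epithelial markers (keratins, EPCAM, CDH1, TFF1 and TFF2) were present in every HPAF-II group. In HNF4G-KO tumors HNF4G mRNA was 7.10, 8.42, 5.72 and 7.11 RPKM, and control tumors had 3.47, 2.48 and 2.57 RPKM. The mRNA was thus higher under the HNF4G-KO label, but mRNA does not measure a frameshift, so these values do not test the knockout. HNF4G-KO is used from here on as the name on the label. FOXA1 reached 6.32 and 8.18 RPKM in FOXA1-OE tumors 1 and 2 but 0.763 RPKM in tumor 3, below the highest value of tumors not labeled FOXA1-OE (1.87 RPKM), and 3 of the 4 metastases labeled HNF4G-KO + FOXA1-OE were also at or below that value. FOXA1-OE tumor 3 and HNF4G-KO + FOXA1-OE tumor 5 also stood apart from the other libraries, with median correlations over genes of 0.870 and 0.908. Their blood cell markers summed to 76.5 and 151 RPKM, against 477 RPKM or more in the other 19 libraries. Only 4 or 5 of these 12 markers were at a mean of 0.3 RPKM or more per group, so that the sum rests on few genes. In the KPC lines, replicates 1 and 2 and replicates 3 and 4 differed between the lines in opposite directions for 73.2% of genes, so that whether the line labels hold for both pairs is not known, and every KPC difference below depends on them. FOXA1-OE tumor 3 was the lowest of the 21 libraries for 7 of the 25 receptors, HNF4G-KO metastasis 1 for 5.

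The receptors with the most mRNA in HPAF-II cells were an orphan COUP-family member, a fatty acid receptor, an estrogen-related receptor and a retinoic acid receptor. NR2F6 had a mean of 41.2 ± 11.2 RPKM (SD, n = 21 libraries), which lies at the 94.7th percentile of the genes tested. PPARG followed with 25.1 ± 6.86 RPKM, ESRRA with 23.99 ± 8.43 RPKM and RARG with 22.0 ± 5.39 RPKM. The SD between libraries exceeded the gaps between the means of PPARG, ESRRA and RARG. This SD spans libraries of all groups and is not the error of a mean, and the order of the receptors was not tested. Next came 7 receptors with means between 12.1 and 16.9 RPKM (NR1D1, NR1D2, THRA, PPARD, NR1H3, NR1H2 and RARA), whose order was not tested either. Another 11 had means between 2.01 and 9.47 RPKM, and NR6A1, NR4A1 and ESR2 were below 1 RPKM.

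**Figure D1:**
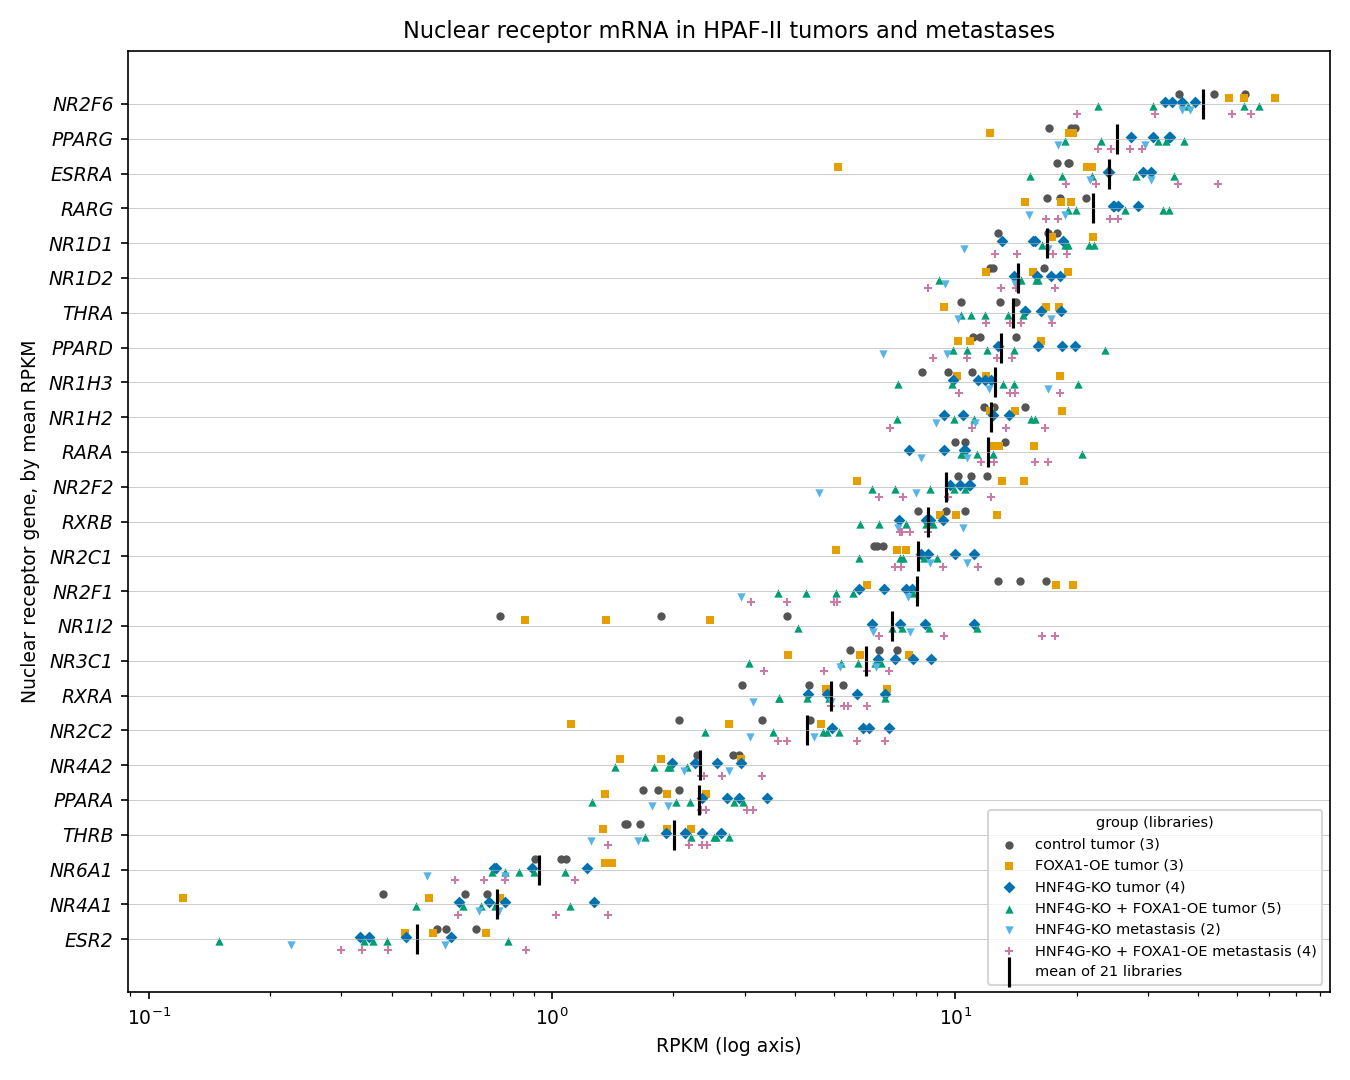
RPKM of 25 nuclear receptors (rows, ordered by mean) in each of 21 HPAF-II libraries on a log axis, with symbols for the 6 groups and a vertical line for the mean of all libraries. Most receptors spread over a narrow range. Control and FOXA1-OE tumors lie at the low end of NR1I2 (0.742 to 3.82 RPKM). In NR2F1 these tumors lie at the high end, except FOXA1-OE tumor 3 (6.02 RPKM), which lies among the groups labeled HNF4G-KO.

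By role, the orphan receptors of the COUP and testicular type were nearly all present, with 5 of 6 at 0.3 RPKM or more. NR2F6 was 35.9, 43.7 and 52.3 RPKM in control tumors, 51.9, 47.6 and 62.0 in FOXA1-OE tumors, 39.3, 36.4, 33.1 and 34.4 in HNF4G-KO tumors and 51.9, 22.5, 30.9, 37.8 and 56.7 in HNF4G-KO + FOXA1-OE tumors. All of these groups overlapped except FOXA1-OE, which lay above HNF4G-KO, a pair that was not tested. NR2E3, a photoreceptor factor, was the member below the filter (0.104 RPKM).

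Of the receptors for lipids, bile acids and xenobiotics, 6 of 8 were present. PPARG, the regulator of fat cell formation and lipid storage, was 19.4, 17.1 and 19.8 RPKM in control tumors, 19.6, 19.2 and 12.2 in FOXA1-OE tumors, 33.8, 34.0, 30.9 and 27.2 in HNF4G-KO tumors and 36.8, 31.8, 33.2, 23.0 and 18.7 in HNF4G-KO + FOXA1-OE tumors. HNF4G-KO tumors lay above all control tumors, and only 1 of the 5 tumors with both changes (tumor 5) lay within the control range. The bile acid receptor NR1H4 (FXR) and the xenobiotic receptor NR1I3 (CAR) had means of 0.0407 and 0.0447 RPKM.

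Few steroid receptors and estrogen-related receptors were present, 3 of 8. ESRRA, which drives mitochondrial energy genes, was 17.8, 19.1 and 19.2 RPKM in control tumors, 21.2, 21.8 and 5.12 in FOXA1-OE tumors, 30.53, 29.21, 23.83 and 24.004 in HNF4G-KO tumors and 34.8, 15.3, 28.0, 18.4 and 21.8 in HNF4G-KO + FOXA1-OE tumors. FOXA1-OE tumor 3, with 5.12 RPKM, was far below every other library. The glucocorticoid receptor NR3C1 had a mean of 5.99 RPKM and the estrogen receptor ESR2 one of 0.462 RPKM, while the mineralocorticoid receptor NR3C2 (0.199), ESR1 (0.0598), ESRRG (0.0144), ESRRB (0.00988) and the progesterone receptor PGR (0.00149) were below the filter. ESR1 was nonetheless 0.540 RPKM in HNF4G-KO + FOXA1-OE tumor 5 and 0.233 in tumor 4 of that group, and at most 0.0794 in the other libraries.

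Thyroid and retinoid receptors were represented by 6 of 7 genes, all but RXRG (0.0370 RPKM). RARG, a retinoic acid receptor of epithelia, was 18.1, 21.1 and 16.9 RPKM in control tumors, 18.2, 19.3 and 14.8 in FOXA1-OE tumors, 24.8, 24.5, 25.2 and 28.3 in HNF4G-KO tumors and 32.7, 19.0, 26.3, 19.9 and 33.9 in HNF4G-KO + FOXA1-OE tumors. HNF4G-KO tumors were again above all control tumors. The clock receptors NR1D1 and NR1D2 (REV-ERBs, repressors of the core clock) were present and their opponents RORA (0.230 RPKM) and RORB (0.00328) were not. Of the immediate early NR4A receptors, NR4A2 (2.33 RPKM) and NR4A1 (0.730) passed and NR4A3 (0.0815) did not. Of NR5A1, NR5A2, NR6A1, NR0B1 and NR0B2, only NR6A1, a repressor of germ and stem cells, passed. NR5A2 (0.221 RPKM), an acinar cell factor, lay just under the filter, while NR0B2 (0.0608), NR5A1 (0.0150) and NR0B1 (0.00274) were lower.

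The tumors labeled HNF4G-KO were compared with control tumors to see which receptors moved with the change in HNF4G. One receptor rose, NR1I2 (PXR), the pregnane X receptor that senses drugs and bile acids and switches on detoxification genes. NR1I2 (GRCh38 chr3:119780484-119818487, plus strand, overlapping ENSG00000285585 on the same strand) was 3.82, 1.86 and 0.742 RPKM in control tumors and 11.1, 7.30, 6.22 and 8.40 RPKM in HNF4G-KO tumors. Every HNF4G-KO tumor was above every control tumor, and the control tumors differed among themselves by more than the HNF4G-KO tumors did on the log scale. Mean NR1I2 was thus 8.26 ± 2.10 RPKM (SD, n = 4) against 2.14 ± 1.56 RPKM (n = 3), a ratio of 3.86. On the log2(RPKM + 1) scale, which understates the change of low genes, the difference was 1.66 ± 0.32 (SE; 95% confidence interval 0.96 to 2.35; limma, adjusted p = 0.0101). The exact permutation test gave p = 0.0571, the smallest that 3 against 4 tumors allow. Without control tumor 2, the difference was 1.65 and the adjusted p 0.0512.

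This was the 1 receptor called among 25, when 9.33% of all genes tested were called (4.96% higher and 4.37% lower). In 10 of 25 receptors the groups did not overlap, 9 higher in HNF4G-KO tumors and 1 lower, while 41.1% of all genes did not overlap (21.9% higher and 19.2% lower). The median difference of the receptors was 0.22, against −0.0022 for all genes.

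The COUP receptor NR2F1, an orphan regulator of cell fate, was the receptor whose groups did not overlap in the other direction. NR2F1 (GRCh38 chr5:93583222-93594611, plus strand, overlapping the antisense gene NR2F1-AS1) was 14.5, 12.7 and 16.8 RPKM in control tumors and 5.76, 7.55, 6.65 and 7.81 RPKM in HNF4G-KO tumors. HNF4G-KO tumors formed a tight cluster below all control tumors. The difference was −0.98 ± 0.32 (SE; 95% confidence interval −1.67 to −0.29), with an adjusted p of 0.0696 that misses the threshold. With libraries shifted to the same median it passed. Its close relative NR2F2 was 10.4 ± 0.522 RPKM (SD, n = 4) against 11.004 ± 0.909 RPKM (n = 3), a difference of −0.07 on the log2 scale (adjusted p = 0.881).

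Of the other lipid receptors, PPARG was 31.5 ± 3.16 RPKM (SD, n = 4) in HNF4G-KO tumors and 18.8 ± 1.47 RPKM (n = 3) in control tumors. Its difference of 0.71 ± 0.23 (SE) had an adjusted p of 0.0616. PPARA, the receptor behind fatty acid oxidation, was 2.84 ± 0.440 against 1.86 ± 0.194 RPKM (adjusted p = 0.103). The oxysterol receptors NR1H3 (11.3 ± 1.05 against 9.60 ± 1.38 RPKM) and NR1H2 (11.4 ± 1.90 against 13.0 ± 1.62 RPKM) overlapped between groups.

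The testicular receptors, which bind the same repeats as retinoid receptors, were also higher in every HNF4G-KO tumor without passing the test. NR2C1 was 9.47 ± 1.34 against 6.43 ± 0.183 RPKM (adjusted p = 0.0782) and NR2C2 was 5.95 ± 0.785 against 3.25 ± 1.15 RPKM (adjusted p = 0.131). RARG, THRB, THRA and ESRRA were the other receptors higher in every HNF4G-KO tumor, with adjusted p-values of 0.147, 0.158, 0.295 and 0.409. None of these values passes, and in a fit of the 7 tumors alone, in which the spread of the FOXA1-OE groups plays no part, 9 of the 25 receptors were called, along with 6150 of all 19900 genes.

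Mouse cells of the host can add reads to a xenograft, so host markers are given beside these values. The summed level of 12 stromal markers was 51.5 to 188 RPKM in control tumors and 48.0 to 68.8 RPKM in HNF4G-KO tumors, and the endothelial marker PECAM1 was under 0.1 RPKM in every library. Of these markers, 7 were at 0.3 RPKM or more in control tumors and 8 in HNF4G-KO tumors. All 12 markers of the exocrine pancreas were at 0.3 RPKM or more in control tumors and 10 in HNF4G-KO tumors, summing to 9.20 to 1232 RPKM (the highest in control tumor 2) and 0.874 to 21.2 RPKM. Of 12 blood cell markers, 4 were at 0.3 RPKM or more in both groups, summing to 539 to 730 RPKM in control tumors and 499.9 to 751 RPKM in HNF4G-KO tumors, and HBA1, HBA2 and CD163 were under 0.1 RPKM in all of these tumors. One of them, CD14, listed as a monocyte marker, fell from 13.9 ± 3.13 RPKM (SD, n = 3) to 4.54 ± 0.495 RPKM (n = 4), a difference of −1.41 (limma, adjusted p = 0.00540). Its mouse ortholog was 43.0 ± 3.40 RPKM in the KPC liver metastasis line and 43.4 ± 3.27 RPKM in the KPC tumor line (n = 4 each). CD14 RNA in a tumor is thus not a measure of blood cells alone. With the stromal mean as a covariate, the NR1I2 difference was 1.94 (adjusted p = 0.00308), and 5 receptors and 3393 genes were called. The part of the exocrine pancreas and of blood cells in these values was not tested. In bulk tumors, fewer cells of a type cannot be told apart from less RNA per cell.

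**Figure D2:**
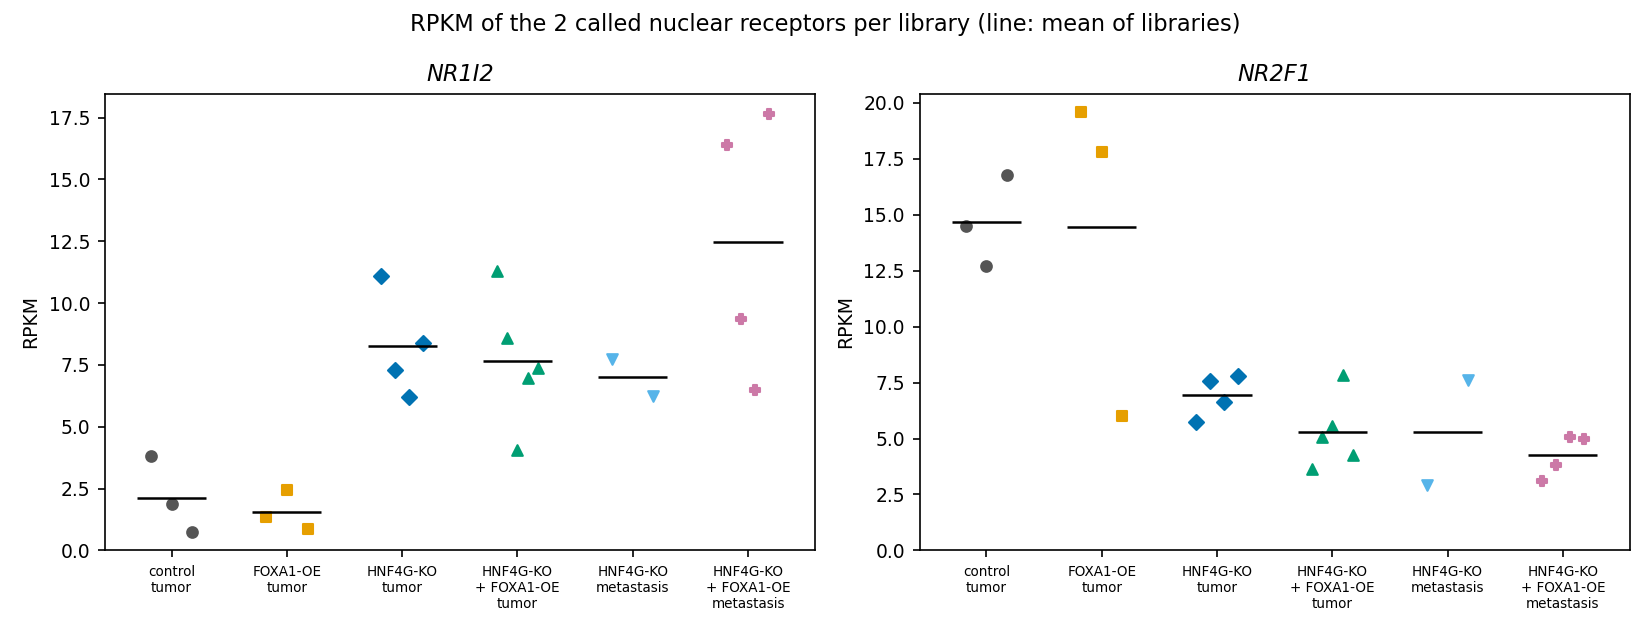
RPKM of NR1I2 (left) and NR2F1 (right) in each library of the 6 HPAF-II groups, with a line at the mean of the libraries. NR1I2 is at 3.82 RPKM or less in control and FOXA1-OE tumors and at 4.07 RPKM or more in the other groups, and NR2F1 is above 12 RPKM in control tumors and below 8 RPKM in all 4 groups labeled HNF4G-KO.

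FOXA1-OE tumors were compared with the same control tumors. No receptor was called (limma, adjusted p under 0.05), none had an unadjusted p under 0.05, and 0% of all genes were called, with 1021 at an unadjusted p under 0.05. NR1I2 was 1.36, 2.46 and 0.856 RPKM and overlapped the control tumors, with a difference of −0.22 (95% confidence interval −0.96 to 0.52). For NR2F1 the values were 19.6, 17.8 and 6.02 RPKM, and the difference was −0.16 (−0.89 to 0.58). FOXA1-OE tumor 3 was the low value in the latter case.

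The receptors with the smallest p-values in this comparison were NR6A1, NR1H3 and NR4A2. NR6A1 was 1.41, 1.39 and 1.35 RPKM in FOXA1-OE tumors and 0.906, 1.08 and 1.05 RPKM in control tumors, and was the 1 receptor of 25 without overlap, against 9.5% of all genes (5.57% higher and 3.92% lower). Its difference was 0.24 ± 0.13 (SE; adjusted p = 0.840; exact permutation p = 0.10, the smallest for 3 against 3). NR1H3 (LXRα), the oxysterol receptor, was 11.9, 10.1 and 18.2 RPKM against 9.56, 8.25 and 11.01 RPKM, and NR4A2 was 2.94, 1.86 and 1.47 RPKM against 2.80, 2.29 and 2.91 RPKM. Both pairs of groups overlapped, with FOXA1-OE tumor 3 at the end of each range.

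FOXA1-OE on top of HNF4G-KO was compared with HNF4G-KO alone. No receptor was called, and 0.106% of all genes were (0.0151% higher and 0.0905% lower). At an unadjusted p under 0.05 there were 2 of 25 receptors and 3578 of 19900 genes. NR1I2 was 11.3, 8.61, 4.07, 6.98 and 7.38 RPKM in HNF4G-KO + FOXA1-OE tumors and so lay around the HNF4G-KO values, with a difference of −0.06 (95% confidence interval −0.70 to 0.58). NR2F1 was 3.64, 5.05, 5.57, 7.85 and 4.26 RPKM, with a difference of −0.38 (−1.02 to 0.26). These intervals leave room for changes of more than 1.5-fold.

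With values taken per mouse, groups did not overlap for 4 receptors of 25, NR1D1 (higher) and NR3C1, THRA and NR2C2 (lower), against 13.3% of all genes (3.12% higher and 10.2% lower). NR3C1, the glucocorticoid receptor, was 5.21, 6.33, 6.53, 5.73 and 3.07 RPKM against 6.43, 8.71, 7.83 and 7.06 RPKM. Tumor 3 lay just above the lowest HNF4G-KO tumor, and with tumors 2 and 3 averaged as 1 mouse the groups only just failed to overlap. Its difference was −0.51 ± 0.21 (SE; adjusted p = 0.250; exact permutation p = 0.0286, the smallest for 4 against 4). RARA was 12.4, 10.3, 10.6, 11.3 and 20.6 RPKM against 10.5, 7.65, 9.36 and 10.6 RPKM (adjusted p = 0.262), and tumor 5 held the outlying value. NR2C1 was 8.35, 9.003, 7.43, 7.29 and 5.78 RPKM against 8.55, 11.1, 9.99 and 8.23 RPKM (adjusted p = 0.283), a shift downward with overlap.

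HNF4G-KO + FOXA1-OE tumors were then set against control tumors and against FOXA1-OE tumors, comparisons that share the tumors with both changes and, for the former, the controls of the paragraphs above. Against control tumors, 2 receptors of 25 were called, among 3.7% of all genes (1.79% higher and 1.9% lower). NR1I2 rose, with 7.91 ± 2.34 RPKM (SD, n = 4 mice) against 2.14 ± 1.56 RPKM (n = 3), and a difference of 1.59 ± 0.32 (SE; adjusted p = 0.0168). NR2F1 fell, with 5.26 ± 1.85 against 14.7 ± 2.04 RPKM and a difference of −1.36 ± 0.32 (adjusted p = 0.0341). In both genes the tumors did not overlap. In a fit of only the groups compared, neither was called (adjusted p = 0.0971 and 0.0662), nor was any gene. CD14 was lower here as well (−1.305, adjusted p = 0.0115).

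Leaving out 1 mouse in turn kept both directions but not both calls. NR1I2 was no longer called without control tumor 2 (adjusted p = 0.0718) or control tumor 3 (0.0956). NR2F1 was no longer called in 6 of the 7 cases, each of the 3 control tumors and 3 of the 4 mice with both changes, with adjusted p-values up to 0.138. The groups also did not overlap for NR1D1 and THRB (higher) and NR4A2 and NR2F2 (lower), so that 6 of 25 receptors did not overlap, 3 in each direction, against 17.1% of all genes (6.8% higher and 10.3% lower).

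Against FOXA1-OE tumors, the same 2 receptors were called, among 6.77% of all genes (2.96% higher and 3.8% lower). NR1I2 was 1.56 ± 0.820 RPKM (SD, n = 3) in FOXA1-OE tumors, and the difference was 1.82 ± 0.32 (SE; adjusted p = 0.00529). NR2F1 was 14.5 ± 7.36 RPKM in FOXA1-OE tumors, with a difference of −1.20 ± 0.32 (adjusted p = 0.0392). Its groups overlapped, since FOXA1-OE tumor 3 had 6.02 RPKM. In a fit of only the groups compared, neither receptor was called (adjusted p = 0.0551 for NR1I2 and 0.249 for NR2F1), and 35 genes were. CD14 was also lower (−1.41, adjusted p = 0.00478). Without FOXA1-OE tumor 3 the NR2F1 difference was −1.70 (adjusted p = 0.00282). NR2F1 was not called in 5 of the 7 cases that left out 1 mouse, without FOXA1-OE tumor 1 with a difference of −0.92 (adjusted p = 0.160). RARG (27.2 ± 7.09 against 17.5 ± 2.34 RPKM, adjusted p = 0.0806) and PPARG (27.8 ± 8.36 against 17.0 ± 4.17 RPKM, adjusted p = 0.0982) missed the threshold. For 4 of the 25 receptors the groups did not overlap (NR1I2 and RARG higher, NR6A1 and RXRB lower), against 14.3% of all genes (6.04% higher and 8.29% lower).

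Whether FOXA1-OE acted differently on an HNF4G-KO background was tested as an interaction term. No receptor was called and none had an unadjusted p under 0.05, as 1795 of all genes did, when 7 genes (0.0352%) were called (0.00503% higher and 0.0302% lower). The receptors with the smallest p-values were THRA, RXRA and NR1D2. The thyroid hormone receptor THRA was 14.1, 12.9 and 10.3 RPKM in control, 16.8, 18.02 and 9.35 in FOXA1-OE, 16.3, 14.9, 14.8 and 18.3 in HNF4G-KO and 10.3, 11.9, 10.9, 13.5 and 14.7 in HNF4G-KO + FOXA1-OE tumors. The highest FOXA1-OE values came in tumors 1 and 2, and the interaction was −0.54 ± 0.29 (SE; adjusted p = 0.623).

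RXRA, the common partner of many receptors, was 5.27, 4.34 and 2.95 RPKM in control, 4.78, 6.78 and 4.85 in FOXA1-OE, 5.69, 4.32, 4.80 and 6.71 in HNF4G-KO and 3.66, 4.28, 3.64, 4.86 and 6.70 in HNF4G-KO + FOXA1-OE tumors (interaction −0.48, adjusted p = 0.678). NR1D2 was 16.6, 12.4 and 12.2, 19.1, 15.6 and 11.9, 17.3, 15.97, 13.97 and 18.2, and 14.5, 15.8, 16.002, 14.2 and 9.11 RPKM in the same order (−0.44, adjusted p = 0.694). All groups overlapped in both genes. The interaction of NR1I2 was 0.16 (95% confidence interval −0.82 to 1.14), which is too wide to show whether its level answered to FOXA1-OE differently in the 2 backgrounds.

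**Figure D3:**
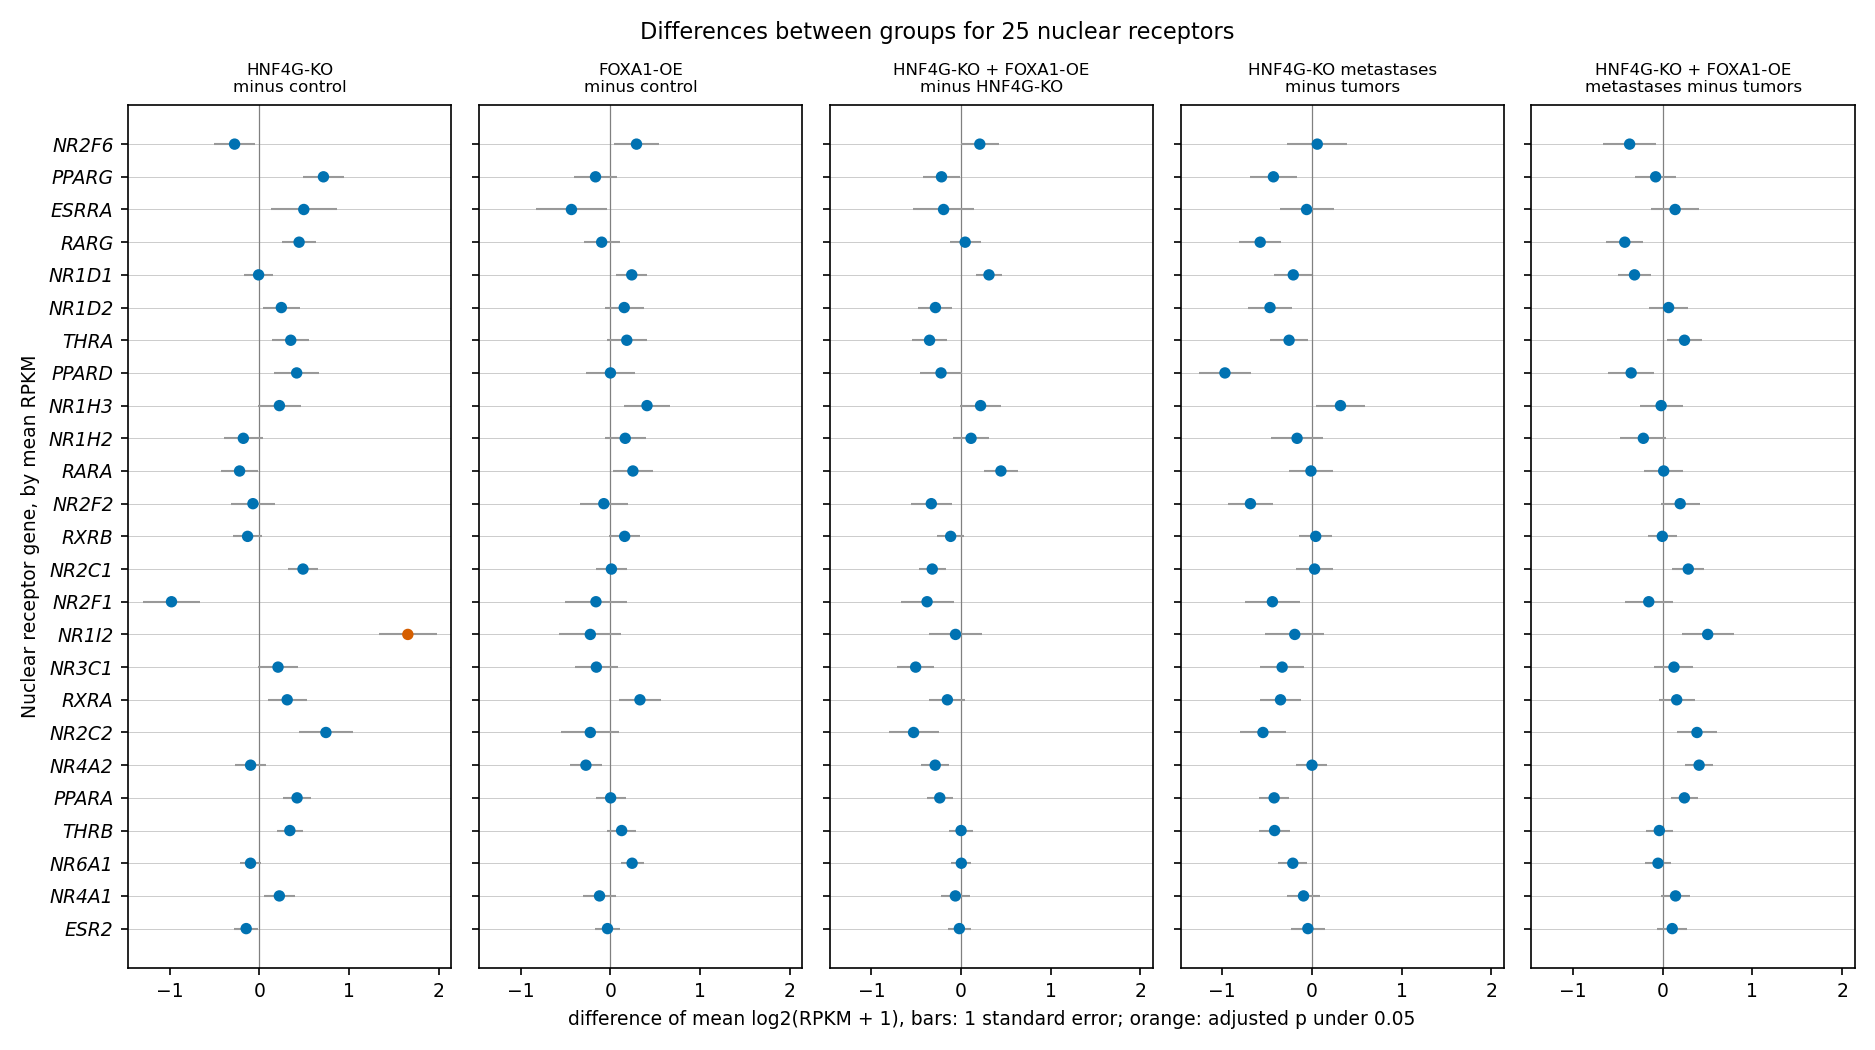
Differences of mean log2(RPKM + 1) for 25 nuclear receptors (rows, ordered by mean RPKM) in 5 comparisons (panels), with bars of 1 standard error. The 1 orange point is NR1I2 in HNF4G-KO minus control tumors (1.66), and blue points have an adjusted p of 0.05 or more.

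Metastases, some from the mice of the tumors above, extended the comparison to other sites. In HNF4G-KO mice, 2 metastases of the peritoneum were compared with 4 tumors. Metastases 1 and 2 came from the mice of tumors 2 and 4, a pairing that the main fit and the permutation test did not use. No receptor was called, 5 of 25 had an unadjusted p under 0.05, and 0% of all genes were called, with 2582 at an unadjusted p under 0.05. For 20 of the 25 receptors the difference was below 0, with a median of −0.21, against −0.067 for all genes. In 7 of 25 receptors both metastases were below all tumors (PPARD, NR3C1, THRB, RARG, NR2C2, NR2F2 and PPARA), when 31.2% of all genes did not overlap (11.2% higher and 20% lower).

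PPARD, a fatty acid receptor found in most tissues, was 9.53 and 6.61 RPKM in the metastases and 12.7, 16.1, 18.4 and 19.8 RPKM in the tumors. The difference was −0.97 ± 0.29 (SE; adjusted p = 0.272; exact permutation p = 0.133, the smallest for 2 against 4). NR2F2 was 4.59 and 7.98 RPKM against 9.72, 10.3, 10.8 and 10.8 RPKM (adjusted p = 0.295), and PPARA was 1.77 and 1.94 RPKM against 2.90, 2.35, 2.71 and 3.41 RPKM (adjusted p = 0.326). In NR2F2, metastasis 1 accounted for the larger part of the difference. The stromal sum was 73.6 RPKM in metastasis 1 and 390 RPKM in metastasis 2, against 48.0 to 68.8 RPKM in the tumors. Of the 12 markers, 9 were at 0.3 RPKM or more in the metastases and 8 in the tumors. A fit with the stromal mean as a covariate was 1 of 8 alternatives run beside leaving out 1 mouse. Across these 8 the difference ran from −1.05 to −0.44 for PPARD, −1.21 to −0.63 for NR2F2 and −0.61 to −0.36 for PPARA. No receptor was called in any of them. NR1I2 stayed within the range of the tumors, with 7.73 and 6.26 RPKM, while NR2F1 was 2.94 RPKM in metastasis 1 and 7.61 in metastasis 2.

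In HNF4G-KO + FOXA1-OE mice, 4 metastases of 3 mice (spleen, fat and peritoneum) were compared with 5 tumors of 4 mice. No receptor was called and 1 of 25 had an unadjusted p under 0.05, when 0.0151% of all genes were called, all lower, and 1789 genes had an unadjusted p under 0.05. That receptor was NR4A2, an immediate early orphan receptor, at 2.64, 2.34, 3.32 and 2.38 RPKM in metastases and 1.97, 2.16, 1.93, 1.79 and 1.43 RPKM in tumors. All metastases were above all tumors, the 1 receptor of 25 without overlap, against 6.31% of all genes (3.72% higher and 2.59% lower). The difference was 0.41 ± 0.15 (SE; adjusted p = 0.529; exact permutation p = 0.0571, the smallest for 3 against 4). Metastases 1 and 2 came from the mouse of tumor 1 and metastasis 4 from that of tumor 4. The main fit and the permutation test did not use this pairing.

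RARG was 25.2, 24.2, 17.9 and 16.8 RPKM in the metastases of this group and overlapped its tumors (adjusted p = 0.555). NR1I2 reached 16.4, 9.36, 6.48 and 17.6 RPKM, so that metastases 1 and 4 held the highest NR1I2 of all 21 libraries. The tumors of the mice with metastases 1 and 4 were tumors 1 and 4, with 11.3 and 6.98 RPKM. The difference over all mice was 0.50 (95% confidence interval −0.13 to 1.13; adjusted p = 0.582). NR2F1 was 3.12, 3.82, 5.08 and 4.99 RPKM and stayed in the low range of the HNF4G-KO groups.

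The metastases of this group came partly from fat, and PPARG is a fat cell gene. The defining fat markers ADIPOQ, LEP and RETN were under 0.1 RPKM in all 21 libraries. Of the 10 fat markers, 3 to 5 were at 0.3 RPKM or more per group, and their sum was 30.9 to 69.5 RPKM in these metastases and 25.8 to 74.3 RPKM in the tumors. Most of the sum was 1 gene, CIDEC, with 54.1, 40.4, 24.1 and 45.9 RPKM in metastases 1 to 4. CIDEC was also 16.7, 13.9 and 11.1 RPKM in control tumors, so the sum does not measure fat content. The 12 stromal markers summed to 70.9 to 215 RPKM and 43.6 to 111 RPKM, and 8 of them were at 0.3 RPKM or more in both. PPARG was 24.3, 28.9, 22.6 and 27.1 RPKM in the metastases, within the range of the tumors.

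Receptors act through coregulators, and lists of these and of known target genes were read beside the receptors. In HNF4G-KO against control tumors, 3 of 16 coactivators rose and 3 of 12 corepressors rose, with medians of 0.37 and 0.19 over the lists. Of all genes tested, 4.96% were called higher and 4.37% lower in this comparison, and the median was −0.0022. The lists of this comparison are to be read against these values. NCOA3, a p160 coactivator, was 16.4, 14.3, 14.8 and 16.5 RPKM in HNF4G-KO tumors and 8.85, 7.26 and 7.39 RPKM in control tumors (difference 0.90 ± 0.17, SE; adjusted p = 0.00751). NCOA2, of the same family, was 6.93, 8.68, 8.93 and 8.28 RPKM against 3.98, 3.42 and 2.51 RPKM (adjusted p = 0.0251), and MED1, the Mediator subunit that contacts receptors, rose by 0.70 (adjusted p = 0.0135). The groups did not overlap in any of the 3.

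The corepressors that rose included the scaffold NCOR1 (0.77, adjusted p = 0.0183) and the ligand-dependent corepressor LCOR (0.70, adjusted p = 0.0126). None of the 16 coactivators and 12 corepressors was called in HNF4G-KO + FOXA1-OE tumors against control tumors. Of all genes, only 1.79% were called higher and 1.9% lower there. Against FOXA1-OE tumors, NCOA3 was higher (0.67, adjusted p = 0.0283) and HDAC3, a histone deacetylase that works with corepressors, was lower (−0.50, adjusted p = 0.02997). In that comparison 2.96% of all genes were called higher and 3.8% lower.

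Of 8 textbook target genes of PXR and CAR, 6 passed the filter and 2 of them rose in HNF4G-KO tumors against control tumors, with a list median of 0.66 (all genes 4.96% higher, median −0.0022). One of them was GSTA1, a glutathione transferase, with 1.23, 0.785, 0.561 and 0.796 RPKM in HNF4G-KO tumors against 0.345, 0.279 and 0 RPKM in control tumors (difference 0.61 ± 0.17, SE; adjusted p = 0.0371). Every HNF4G-KO tumor was above every control tumor, at a low level in both groups. CYP3A4, the best-known PXR target, and ABCB1 were under the filter, and CYP3A4 was between 0.0347 and 0.355 RPKM in all 21 libraries, the highest in FOXA1-OE tumor 3.

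UGT1A1, which glucuronidates bilirubin, was called higher in HNF4G-KO + FOXA1-OE tumors against FOXA1-OE tumors alone (0.76, adjusted p = 0.0492). Like the GSTA genes, it belongs to a family of near copies (its last exons are shared by the whole UGT1A cluster), so that the split of reads between members is uncertain. CYP3A5, CYP2B6 and ALAS1, the more abundant genes of the list, were not called in any comparison, although every HNF4G-KO tumor was above every control tumor for CYP3A5 (40.1 ± 3.70 against 22.5 ± 5.34 RPKM, adjusted p = 0.0721) and ALAS1 (37.8 ± 0.696 against 31.9 ± 2.07 RPKM, adjusted p = 0.627).

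**Figure D4:**
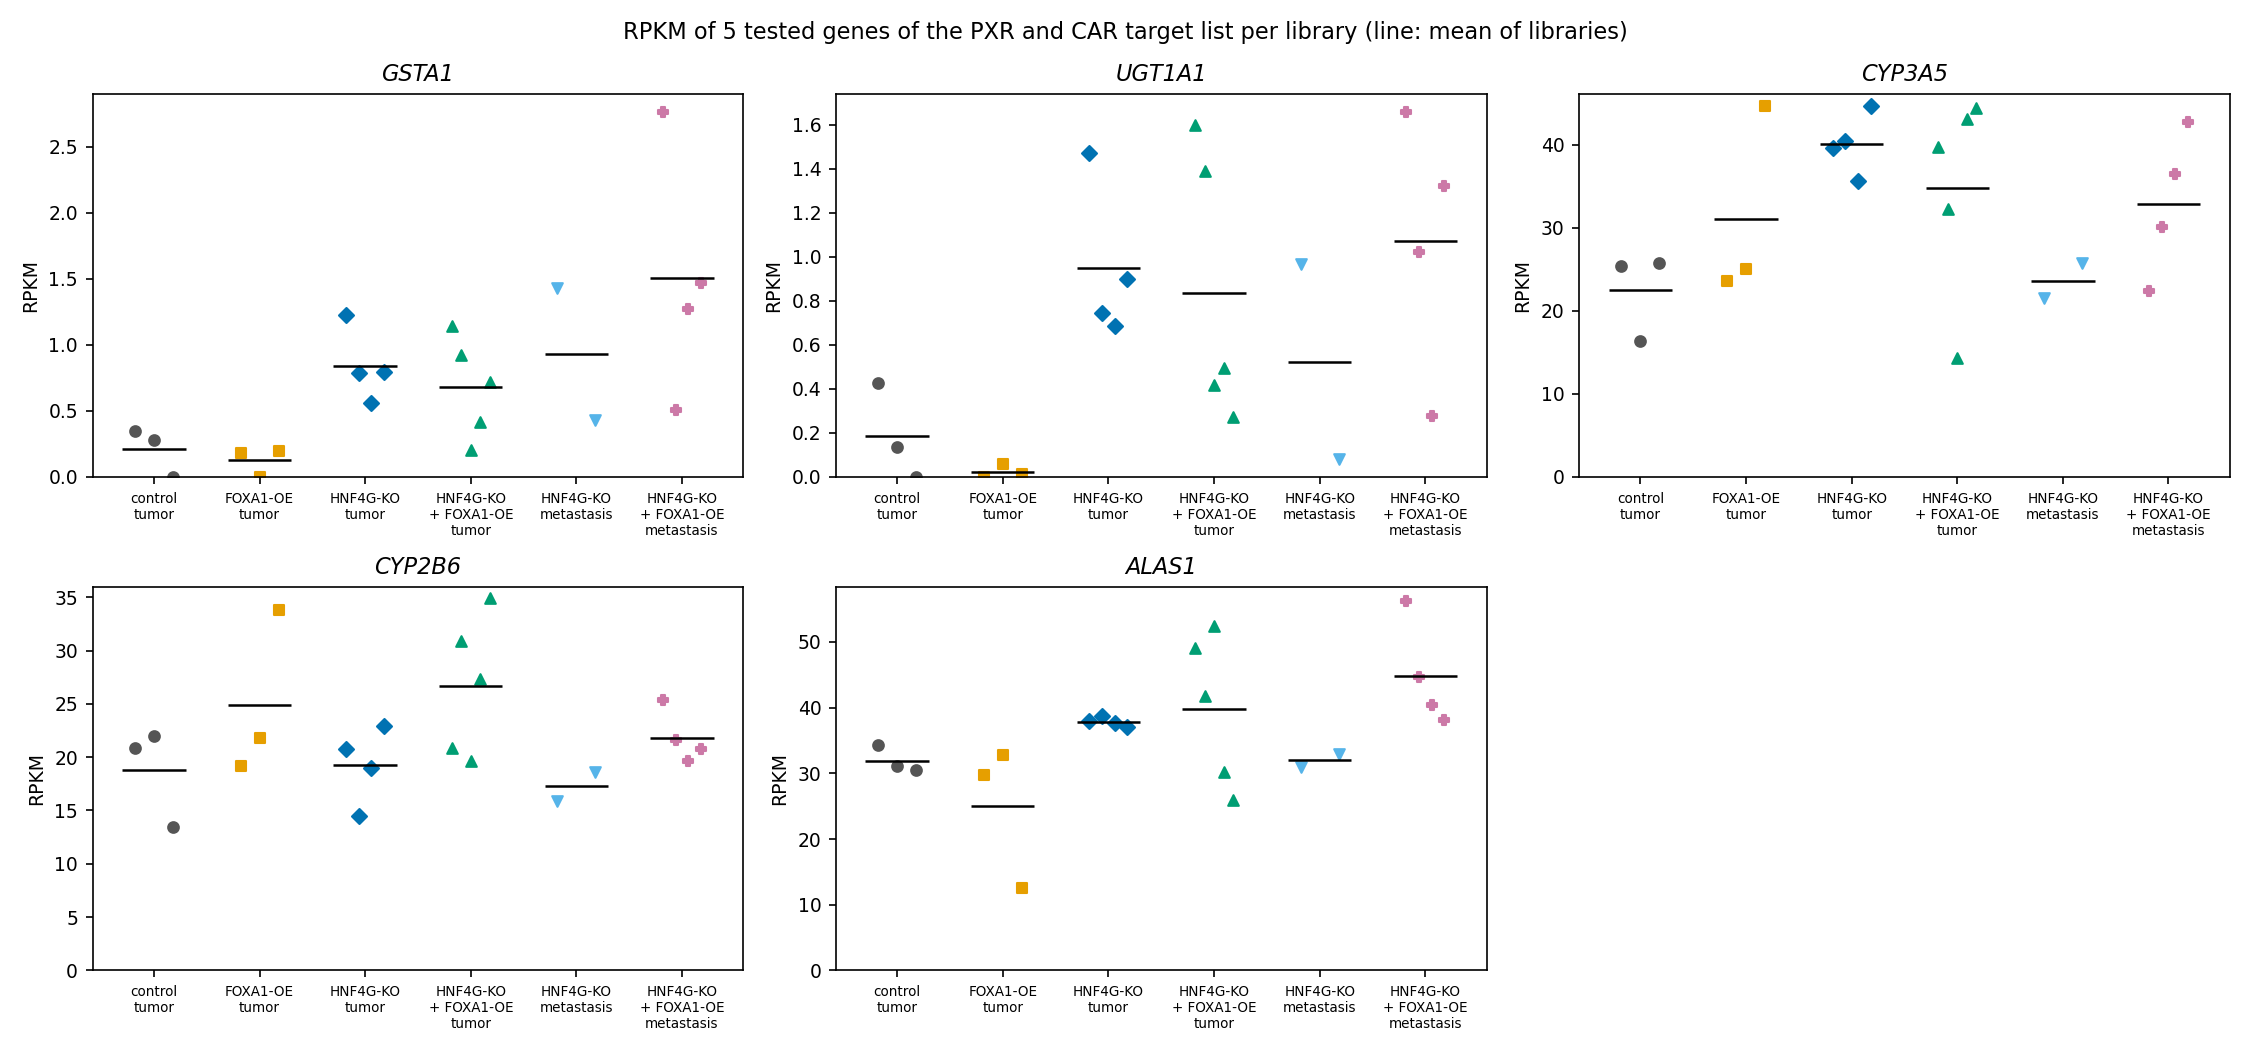
RPKM of 5 tested genes of the PXR and CAR target list (panels) in each library of the 6 HPAF-II groups, with a line at the mean of the libraries. GSTA1 is at 0.345 RPKM or less in control and FOXA1-OE tumors and at 0.561 RPKM or more in HNF4G-KO tumors, where UGT1A1, CYP3A5 and ALAS1 also lie above all control tumors and CYP2B6 overlaps them. All 5 genes overlap between the libraries of control and HNF4G-KO + FOXA1-OE tumors.

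Among 16 tested PPAR target genes, 2 rose in HNF4G-KO tumors against control tumors, among them CREB3L3, a liver and gut transcription factor. CREB3L3 was 2.63, 1.59, 1.27 and 1.91 RPKM against 0.696, 0.255 and 0.0757 RPKM (1.09 ± 0.19, SE; adjusted p = 0.00650). The list median was 0.20, against −0.0022 for all genes, of which 4.96% were called higher. In HNF4G-KO + FOXA1-OE tumors CREB3L3 was also higher, against control (1.40, adjusted p = 0.00365) and against FOXA1-OE tumors (1.62, adjusted p = 0.000795). FABP1, the liver fatty acid binding protein, was 14.9 ± 16.7 RPKM (SD, n = 4 mice) against 0.903 ± 1.14 RPKM (n = 3) in control tumors, a called rise (adjusted p = 0.0314) with an SD above its mean.

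Against FOXA1-OE tumors, 4 of the 16 PPAR targets were higher, among them FABP1, CREB3L3 and VNN1. In that comparison 2.96% of all genes were called higher. The remaining lists gave single calls, beside 4.96% of all genes called higher and 4.37% lower. In HNF4G-KO against control tumors, SCD, the stearoyl-CoA desaturase, was the 1 of 9 LXR targets that rose (0.82, adjusted p = 0.0107), ABCB4 the 1 of 5 FXR targets that rose (0.37, adjusted p = 0.0490), CLOCK the 1 of 14 clock genes that rose (0.57, adjusted p = 0.0446), CRABP2 the 1 of 4 retinoic acid targets that was lower (−0.997, adjusted p = 0.0385) and UQCRC1 the 1 of 9 ERR targets that was lower (−0.74, adjusted p = 0.0176). No tested gene of the thyroid (2) or glucocorticoid (9) lists was called there.

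In HNF4G-KO + FOXA1-OE against control tumors, TGM2 (retinoic acid list), NPAS2 (clock list) and TSC22D3 (glucocorticoid list) were lower. Of all genes, 1.9% were called lower there. Against FOXA1-OE tumors, BHLHE41 of the clock list was higher (1.29, adjusted p = 0.00949) and TSC22D3 lower (−0.96, adjusted p = 0.00999). Beside them, 2.96% of all genes were called higher and 3.8% lower. In FOXA1-OE against control tumors, in HNF4G-KO + FOXA1-OE against HNF4G-KO tumors, in the interaction and in both metastasis comparisons, none of these coregulators and targets was called. At most 0.106% of all genes were called in any of these comparisons.

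The KPC lines carried a similar set of receptors. Of the 25 that passed in each table, 21 were shared. ESR2, NR1I2, PPARA and THRB passed in HPAF-II cells only, and Nr0b2, Nr1h4, Nr3c2 and Rorb in KPC lines only. Nr1i2, the receptor that rose in the human tumors, had a mean of 0.200 RPKM in KPC lines, while the bile acid receptor Nr1h4 had 3.01 RPKM and its target Nr0b2 (SHP), a receptor without a DNA-binding domain, 1.23 RPKM. The 12 genes that passed in neither table were ESR1, ESRRB, ESRRG, NR0B1, NR1I3, NR2E3, NR4A3, NR5A1, NR5A2, PGR, RORA and RXRG, and the mouse genes Rxrg, Esr2, Esrrb, Esrrg and Nr0b1 were listed at 0 in all 8 libraries.

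Pparg was the most abundant receptor of the KPC table (mean 29.1 RPKM), with 35.1, 37.6, 17.9 and 24.5 RPKM in tumor line replicates 1 to 4 and 26.5, 24.2, 33.4 and 34.0 RPKM in liver metastasis line replicates 1 to 4. Nr4a1, an immediate early receptor, spread most widely, with 57.3, 35.9, 5.21 and 4.61 RPKM in the tumor line and 34.7, 34.5, 6.44 and 7.56 RPKM in the metastasis line. In both lines, replicates 1 and 2 were high and replicates 3 and 4 low for Nr4a1. The top genes of the other roles were Esrra (mean 20.3 RPKM), Rara (19.5), Nr2f6 (18.3), Nr1d1 (15.2) and Nr6a1 (3.06).

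Comparing the liver metastasis line with the tumor line, no receptor was called (limma, smallest adjusted p 1), none had an unadjusted p under 0.05, and 0% of all genes were called, with 213 at an unadjusted p under 0.05. Nr6a1 was 2.85, 2.88, 4.10 and 4.02 RPKM in the metastasis line and 2.69, 2.71, 2.63 and 2.59 RPKM in the tumor line, the 1 receptor of 25 without overlap, against 0.899% of all genes (0.623% higher and 0.276% lower). Its difference was 0.28 ± 0.14 (SE; adjusted p = 1; exact permutation p = 0.0286, the smallest for 4 against 4), and replicates 3 and 4 gave most of it. Nr1h4 was 3.06, 3.30, 3.26 and 3.01 RPKM against 2.52, 2.97, 2.17 and 3.80 RPKM, and Nr0b2 was 0.985, 0.543, 1.73 and 2.40 RPKM against 1.63, 1.74, 0.398 and 0.381 RPKM. Both overlapped, and in Nr0b2 replicates 1 and 2 differed in the opposite direction from replicates 3 and 4.

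Such a split ran through the receptors of the KPC lines. Taken in pairs, replicates 1 and 2 and replicates 3 and 4 gave differences of opposite sign for 19 of the 25 receptors (76.0%), as they did for 73.2% of all genes. Ppard differed by −0.70 in replicates 1 and 2 and by 0.63 in replicates 3 and 4, Pparg by −0.50 and 0.66, and Nr0b2 by −0.62 and 1.13. Averages over 4 replicates therefore hide differences within pairs for these genes. The labels give no batch for these replicates.

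**Figure D5:**
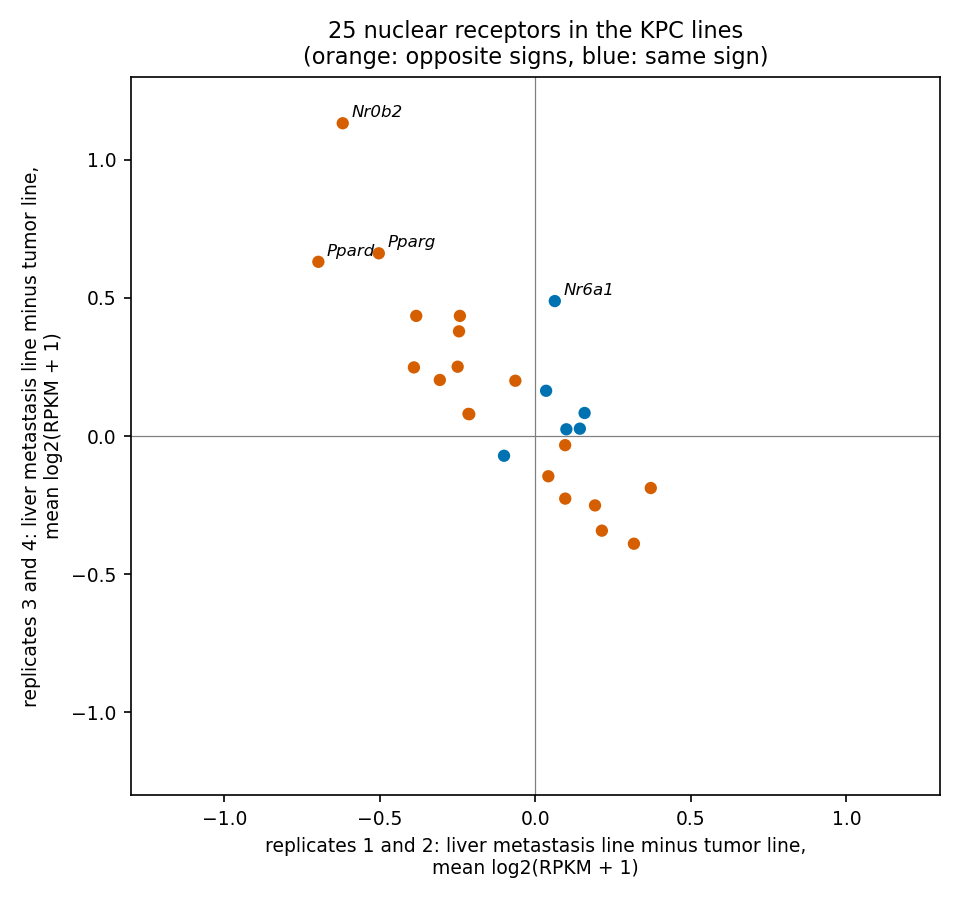
Difference of mean log2(RPKM + 1), liver metastasis line minus tumor line, in replicates 1 and 2 (x axis) and in replicates 3 and 4 (y axis) for 25 nuclear receptors (points). Of the points, 19 (orange) have opposite signs, with Nr0b2 farthest out at −0.62 and 1.13, and 6 (blue) have the same sign.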

How the data were processed

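Total RNA was sequenced as stranded mRNA libraries (TruSeq). The authors aligned the reads and deposited RPKM values in a table per species. The processing notes submitted by the authors name STAR 2.6.1a, featureCounts 2.0.4 and DESeq2 with GRCh38 (hg38) and GRCm38 (mm10), whereas the study's methods name GRCh37 for human reads. Coordinates given here are those of GENCODE annotation on GRCh38. Gene symbols were found for 58250 of 58719 human and 54409 of 54446 mouse IDs. Since RPKM values cannot enter the count model of the study, differences were fitted on log2(RPKM + 1) by limma (version 3.58.1, R 4.3.3, a mean-variance trend in eBayes) over genes averaging 0.3 RPKM or more, with Benjamini-Hochberg adjustment over all genes tested and a threshold of 0.05. Called, rose and fell refer to this test, and confidence intervals (95%) use its degrees of freedom.

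The 4 tumor groups entered 1 fit, metastases were fitted with the tumors of their groups, and the KPC lines separately. Samples of 1 kind from 1 mouse were averaged on the log2 scale, and means ± SD are over mice. Exact permutation tests were two-sided. Nothing in the labels shows that KPC libraries came from separate cultures, so that p-values measure the spread between samples, which may be technical. Library depth was recovered from the spacing of low RPKM values (most often 2 reads). Whether counting used strand is not stated in the sources used here, and exons of THRA and NR1D1, NR2F1 and NR2F1-AS1, NR1I2 and ENSG00000285585, RXRB and SLC39A7, and ESRRA and TRMT112 overlap, so that their reads may be shared. In the KPC table, 12 columns of other samples were left out.

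Values in every sample are given for receptors called in any comparison, for the 3 of smallest p where none was called and for the top receptor of each role. Beyond these, values of receptors without overlap between groups and of NR2F2 and ESR1 were added after they were seen. Up to 3 genes of a target list are named. Some listed genes are counted but not reported here by name. Members and lists were chosen with earlier results of these data known. Tumor numbers did not pair samples (correlations of deviations from group means from −0.505 to 0.459). Tumors and metastases are paired by mouse in part of the metastasis comparisons, by the labels (−0.0056 to 0.357). The fits were tested on simulated data. Tables and figures were made in Python 3.11.15 with pandas 2.3.3, and drawn with matplotlib 3.10.9.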

Additional observations from a re-analysis of the deposited data

Results flagged for a closer look

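Among 100 groups of 4 mice or libraries tested for a sample far from the others, 4 were flagged, and chance flags about 1 in 20. NR1D1 was 22.1 RPKM in 1 of the 4 mice with HNF4G-KO + FOXA1-OE tumors, against 18.7 to 19.0 RPKM in the others. Thra was 9.42 RPKM in replicate 4 of the KPC tumor line, against 13.5 to 13.9 RPKM. In the KPC liver metastasis line, Nr1h2 was 26.8 RPKM in replicate 2, against 28.2 to 28.3 RPKM, and Nr1d1 was 20.9 RPKM in replicate 1, against 11.9 to 12.9 RPKM.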

How the results depend on the processing

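NR1I2 kept a positive and NR2F1 a negative difference in every alternative run for their called comparisons. The count of receptors called in HNF4G-KO against control tumors was 1, and it became 2 with no RPKM filter (NR5A2 added), 2 with libraries at the same median (NR2F1), 9 when only the groups compared were fitted, 2 with tumor number as a replicate block (PPARG added), 5 with the host stroma covariate, and 0 to 1 when 1 mouse was left out. In HNF4G-KO + FOXA1-OE against control tumors it was 2, and became 1 with no filter, 0 with only the groups compared (NR1I2, adjusted p = 0.0971), 1 with the covariate (NR2F1, adjusted p = 0.0558), 4 without both libraries that stood apart, an alternative chosen after seeing the data, and 0 to 2 when 1 mouse was left out. Against FOXA1-OE tumors it was 2, and became 1 with no filter, 0 with only the groups compared, 4 with the replicate block and 1 to 3 when 1 mouse was left out. In the KPC lines it was 0, and became 3 in replicates 1 and 2 alone (Pparg, Thra and Ppard lower), where Nr0b2 turned to −0.62. Counts over all genes moved too, from 1857 to between 311 (without control tumor 2) and 6150 (only the groups compared) in HNF4G-KO against control, from 736 to between 0 and 1270 in HNF4G-KO + FOXA1-OE against control, from 1347 to between 35 and 2590 against FOXA1-OE tumors, from 21 to between 0 and 77 against HNF4G-KO tumors, from 7 to between 0 and 13 in the interaction, from 0 to up to 572 (without HNF4G-KO metastasis 1) and from 3 to up to 31 (without the mouse of tumors 2 and 3) in metastases against tumors, first without and then with FOXA1-OE, from 0 to 4 in FOXA1-OE against control tumors with no filter, and from 0 to 2791 and 61 in the KPC replicate pairs. The cause was not tested. The mouse as a block changed no receptor's call.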

Other observations

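NR5A2, a receptor of acinar cells and the liver, fell short of the filter in its mean over all libraries (0.221 RPKM) but was 0.380, 0.396, 0.371 and 0.538 RPKM in the HNF4G-KO tumors. It was 0.198, 0.147 and 0.0537 RPKM in control tumors and 0.217, 0.142 and 0.218 RPKM in FOXA1-OE tumors. No library of these 6 reached the lowest HNF4G-KO tumor. The HNF4G-KO + FOXA1-OE tumors were at 0.210, 0.312, 0.183, 0.266 and 0.303 RPKM, below all HNF4G-KO tumors and overlapping control and FOXA1-OE tumors, and the HNF4G-KO metastases were at 0.0483 and 0.0517 RPKM. The exocrine pancreas markers summed to 0.874 to 21.2 RPKM in the HNF4G-KO tumors and 9.20 to 1232 RPKM in control tumors, and their part in these values was not tested. With no RPKM filter, HNF4G-KO and control tumors differed by 0.33 on the log2(RPKM + 1) scale (limma, adjusted p = 0.0218). These values were chosen after they were seen.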
